A study of Mus musculus with 32 samples.

Results

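Liver secretes most plasma proteins. A group of 10 transcripts named for liver-type plasma proteins was followed here in translating Sertoli and Leydig cells of the mouse testis. The group holds the inter-alpha-trypsin inhibitor heavy chains Itih1, Itih2, Itih3, Itih4 and Itih5 and the light chain precursor Ambp. It also holds fetuin-B (Fetub), leucine-rich alpha-2-glycoprotein (Lrg1), serum amyloid A3 (Saa3) and haptoglobin (Hp). Members were taken by symbol: each of the 10 has exactly 1 probe set with that single gene symbol, out of 35556 probe sets and 19938 named genes on the array. The list was drawn up after the ratios of Leydig IP to input were known for some of them, so that ratio is given below as a description without a test. RNA bound to ribosomes with a hemagglutinin (HA) tag was recovered with an anti-HA antibody (IP) and compared with RNA of the testis homogenate before the IP (input) on 32 Affymetrix Mouse Gene 1.0 ST arrays, and all values are log2 signals after RMA normalization.

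Mice were offspring of RiboTag mice crossed with a Cre line and heterozygous at both loci, so that tagged ribosomes arise only where Cre is active. AMH-Cre: RiboTag mice, in which Cre is active in Sertoli cells, gave 5 inputs and 5 IPs after saline, and 2 IPs each after acyline, acyline followed by FSH for 1 h, acyline followed by FSH for 4 h, cetrorelix, and cetrorelix followed by testosterone (T). Cyp17iCre: RiboTag mice, in which Cre is active in Leydig cells, gave 3 inputs and 3 IPs after saline, and 2 IPs each after acyline, acyline followed by LH for 1 h, and acyline followed by LH for 4 h. Acyline and cetrorelix block the GnRH receptor and thereby withdraw LH and FSH, and the LH given back was purified human hormone in a single injection. Antagonist was given over 3 days in the Sertoli line and over 4 days in the Leydig line. The study describes its mice as adult, and exact ages and the strain are not given in the sources used here. In the study's sections the Cyp17iCre mice also had HA staining in scattered cells inside the tubules. The study identified these as Sertoli cells from the transcripts in the IPs, so the Leydig IPs here are not of Leydig cells alone. All IPs carried the tag, and no IP from mice without Cre was analysed here. Nothing in the labels ties an array to a separate animal, so p-values measure the spread between these arrays.

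The classical heavy chains are secreted by hepatocytes, joined to the light chain bikunin that is cut from Ambp, and passed on to hyaluronan, where they bind the matrix together; Tnfaip6 carries out that transfer, and the matrix of the expanding ovarian cumulus is the best known example. Fetuin-B is a cystatin-family inhibitor of astacin proteases that keeps the egg coat from hardening early, Lrg1 is a leucine-rich glycoprotein that modifies TGF-beta signaling through endoglin, and Saa3 and Hp are acute phase proteins, Hp being the scavenger of free hemoglobin. Acute phase genes of hepatocytes respond to interleukin 6 through Stat3 and to C/EBP factors. Leydig cells make testosterone under LH, which raises cyclic AMP.

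Array medians lay between 6.36 and 6.50, and replicates of a group correlated with r between 0.988 and 0.994 across probe sets. All 6 measured Leydig cell markers (steroidogenic genes such as Star and Cyp17a1) were more than 2-fold higher in Leydig IPs than in inputs and all 6 were lower in Sertoli IPs; all 6 measured Sertoli cell markers were higher in Sertoli IPs, and none differed by 2-fold between Leydig IPs and inputs. Hepatocyte markers stayed low: the summed linear signal of the 9 measured was 303 to 358 in Leydig IPs, 323 to 392 in Sertoli IPs and 312 to 353 in inputs, with albumin (Alb) at 4.11 in Leydig saline IPs and 4.40 in the inputs of that line. Neutrophil markers, the other usual source of Lrg1 and Hp, summed over 11 genes to 307 to 352 in Leydig IPs and 323 to 367 in inputs. Tests were run on probe sets over a linear signal of 50 (log2 5.64) on 1 or more of the fitted arrays, and how many members did so is given with each comparison.

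Itih2, Itih5, Fetub and Lrg1 were the members with high signal in Leydig IPs, and the 250 bases before their annotated starts are shown because these are the regions their transcription starts from. The sequences are from RefSeq (build GRCm38.p6) on the strand of the gene, at chr2:10130684-10130933 for Itih2 (minus strand), chr2:10153293-10153542 for Itih5 (plus), chr16:22918132-22918381 and chr16:22919972-22920221 for the 2 annotated starts of Fetub (plus), and chr17:56121947-56122196 for Lrg1 (minus). Capitals mark every match, on either strand, to the motifs searched: TATAAA (the box that places the start of transcription), AAGGTCA (the site of SF-1, the nuclear receptor that drives steroidogenic genes) with its variant written AAGGCCA, then TGACG (the short cyclic AMP response element) with its full palindrome TGACGTCA, TTGCNNAA for C/EBP factors, TTCNNNGAA for STAT factors and AGATAA for factors of the GATA family.
Itih2: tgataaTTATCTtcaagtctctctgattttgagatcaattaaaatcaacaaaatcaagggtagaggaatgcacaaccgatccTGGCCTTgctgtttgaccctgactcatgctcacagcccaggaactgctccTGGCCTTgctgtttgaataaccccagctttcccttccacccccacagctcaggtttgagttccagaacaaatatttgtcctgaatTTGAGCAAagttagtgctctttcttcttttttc
Itih5: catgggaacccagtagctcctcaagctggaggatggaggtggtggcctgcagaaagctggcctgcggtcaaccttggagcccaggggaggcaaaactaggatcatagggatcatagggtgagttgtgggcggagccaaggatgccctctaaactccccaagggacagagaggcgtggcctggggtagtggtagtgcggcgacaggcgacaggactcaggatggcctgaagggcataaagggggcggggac
Fetub start 1: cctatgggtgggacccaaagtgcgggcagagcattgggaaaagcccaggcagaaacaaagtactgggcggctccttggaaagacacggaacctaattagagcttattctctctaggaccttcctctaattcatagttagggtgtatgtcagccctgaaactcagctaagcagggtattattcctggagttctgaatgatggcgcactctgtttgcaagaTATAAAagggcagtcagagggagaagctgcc
Fetub start 2: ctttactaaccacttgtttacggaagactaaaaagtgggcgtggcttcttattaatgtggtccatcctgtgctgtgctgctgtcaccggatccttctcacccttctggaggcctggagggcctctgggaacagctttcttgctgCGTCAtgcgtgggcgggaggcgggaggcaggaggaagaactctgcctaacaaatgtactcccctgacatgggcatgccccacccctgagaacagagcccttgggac
Lrg1: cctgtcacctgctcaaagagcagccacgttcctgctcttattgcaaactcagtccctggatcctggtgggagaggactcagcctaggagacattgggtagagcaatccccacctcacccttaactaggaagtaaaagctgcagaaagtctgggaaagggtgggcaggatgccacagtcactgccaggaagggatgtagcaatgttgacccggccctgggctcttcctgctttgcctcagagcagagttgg
Itih2 had AAGGCCA at 168 and again at 118 bases before the start, both on the opposite strand, TTGCNNAA at 33 and AGATAA at 244 bases before it. Fetub had TATAAA 31 bases before start 1 and TGACG 106 bases before start 2, in a window without TATAAA. Itih5 had none of the motifs, and in Lrg1 a TATAAA lay at base 12 of the transcript, beyond the letters shown. Over windows of 300 bases (50 past the start included), TATAAA was in 13.6% of all 32851 RefSeq promoters, AAGGCCA in 6.20%, TTGCNNAA in 10.8%, AGATAA in 11.2%, TGACG in 20.8%, and TGACGTCA in 1.79% and in 0 of the 10 windows found for 9 members. These matches are letters in a window and not measured binding.

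Of the 10 transcripts, 4 were far higher in Leydig IPs than in the input of the same line and the log2 ratios of the other 6 were between -0.13 and 0.51. On saline arrays, Itih2 read 12.08, 12.28 and 12.05 in Leydig IPs and 8.05, 7.95 and 7.98 in inputs, a 17.7-fold ratio. Fetub read 11.33, 11.34 and 11.36 in Leydig IPs and 7.31, 7.14 and 7.16 in inputs, a 17.6-fold ratio. Lrg1 read 9.99, 10.14 and 10.05 in Leydig IPs and 6.27, 6.23 and 6.07 in inputs, a 14.6-fold ratio. In all 3 the IPs stood well clear of the inputs. Itih5 read 8.89, 9.22 and 8.95 in Leydig IPs and 6.03, 6.15 and 6.22 in inputs, a 7.38-fold ratio. Standard errors of these log2 ratios were 0.075 for Fetub, 0.085 for Lrg1, 0.086 for Itih2 and 0.11 for Itih5.

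Itih3 was 1.23-fold higher, Hp 1.11-fold and Itih4 1.04-fold, and Itih1, Ambp and Saa3 did not pass the signal filter in this fit, with log2 differences of -0.01, -0.13 and 0.51. For Itih3 and Saa3 all 3 IPs were above all 3 inputs, and for the other 4 the groups overlapped. Of the 7 members that passed, 4 were past 2-fold and higher, where 11.0% of all 24705 probe sets were (10.7% were lower); since the list was drawn from this contrast, nothing is read from that share. Fewer cells of a type and less RNA per cell cannot be told apart in these bulk samples, and a ratio is a share of the RNA recovered and not a number of copies per cell. The inputs of both lines are whole testis, yet Fetub was 7.14 to 7.31 in the Leydig line inputs and 6.14 to 6.85 in the Sertoli line inputs, without overlap, and Itih2 was 7.95 to 8.05 against 7.30 to 7.78. Ambp went the other way, at 5.45 to 5.58 in the Leydig line inputs and 5.67 to 5.79 in the Sertoli line inputs. For the remaining members the inputs of the lines overlapped. The share of all probe sets with such separation of inputs was not computed. Cre line and any difference in handling between the lines cannot be told apart in these inputs.

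**Figure D1:**
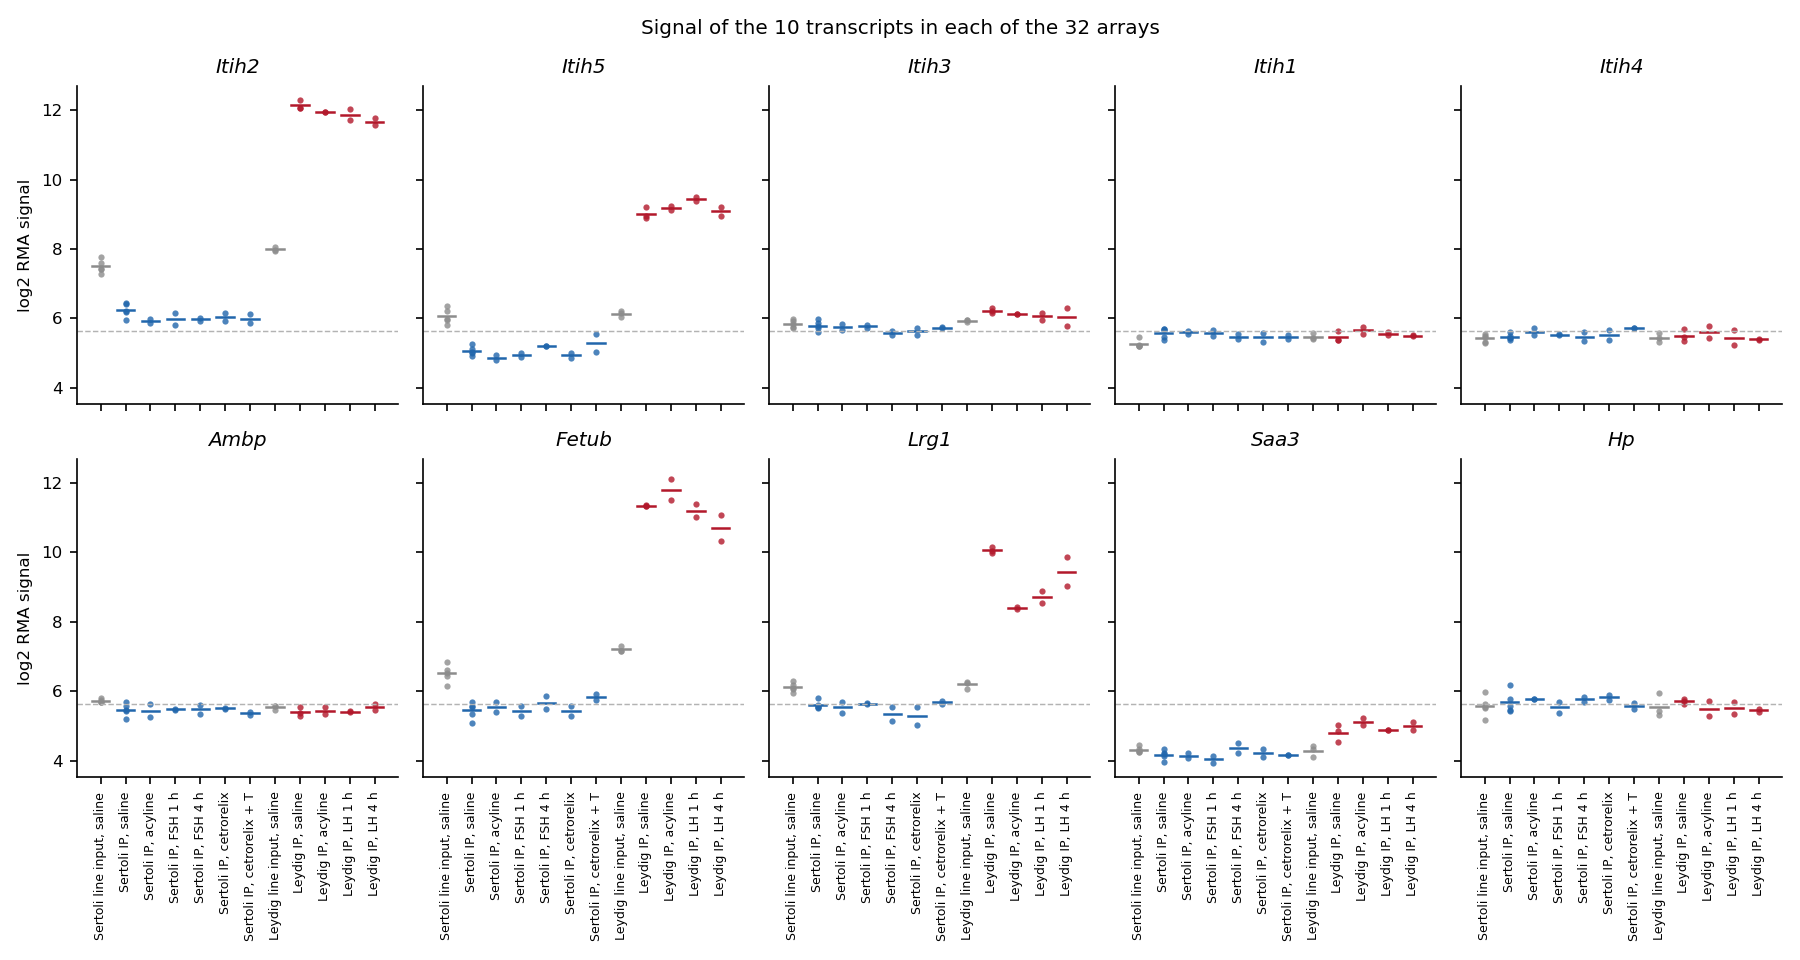
Log2 RMA signal of each of the 10 transcripts in all 32 arrays (points) with group means (lines), by Cre line, input or IP, and treatment; FSH and LH groups also received acyline, and the dashed line is the signal filter at 5.64. Itih2, Itih5, Fetub and Lrg1 stand above every Sertoli IP in all 9 Leydig IPs, and the other 6 panels stay between 3.94 and 6.32.

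Sertoli IPs showed the opposite sign for the same transcripts, in mice of the other line. These arrays were not part of the contrast from which the members were chosen, but earlier results for them were known, so they are no independent support. Itih2 read 7.59, 7.42, 7.44, 7.78 and 7.30 in Sertoli line inputs and 6.45, 5.95, 6.18, 6.42 and 6.23 in Sertoli IPs. It fell by 1.26 on the log2 scale (standard error 0.11, 2.39-fold lower, limma adjusted p = 6.64e-07). Every Sertoli IP was below every input. Fetub read 6.43, 6.85, 6.53, 6.61 and 6.14 in inputs and 5.10, 5.35, 5.55, 5.56 and 5.68 in IPs, again without overlap. It fell by 1.07 (standard error 0.14, limma adjusted p = 1.89e-05); only 1 of the 5 IPs was over the filter limit of 5.64, so the size is not read as a ratio. Without input replicate 2 or IP replicate 1 the Fetub difference was -0.98 and missed the 2-fold limit, at adjusted p-values no higher than 8.38e-05 over all arrays left out. Itih5 was at the limit from the other side, with a log2 difference of -0.99 (standard error 0.11, limma adjusted p = 3.29e-06), and passed it without any 1 of 5 arrays (input replicates 2, 3 and 5, IP replicates 1 and 4), at -1.06 to -1.01. All 5 inputs but 0 of 5 IPs were over the filter limit, so Itih5 entered this test only through the inputs and the side of the 2-fold limit is not read. Lrg1 had a log2 difference of -0.51 (standard error 0.081, limma adjusted p = 0.000108), with all 5 IPs at 5.52 to 5.81 under all 5 inputs at 5.94 to 6.29 and 1 IP over the filter limit.

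Of the 8 members that passed the filter, 2 were called lower and 0 higher, where 11.7% of 24797 probe sets were called lower and 12.4% higher; without filter the calls were the same in number. Itih1 had a log2 difference of 0.31 (standard error 0.084, limma adjusted p = 0.00533) and Ambp one of -0.24 (standard error 0.083, limma adjusted p = 0.0196), both under 2-fold and with means between 5.27 and 5.71. Itih1 was over the filter limit in 3 of 5 IPs and 0 of 5 inputs, and Ambp in 1 of 5 IPs and 5 of 5 inputs, so Itih1 entered the test only through the IPs. Itih3 and Hp differed by -0.06 and 0.11, neither past an unadjusted p of 0.05. The 6 Leydig cell markers had a median log2 difference of -1.67 in the same comparison, beside -0.03 over all probe sets tested, and their part in the lower signal of Itih2 and Fetub was not tested.

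**Figure D2:**
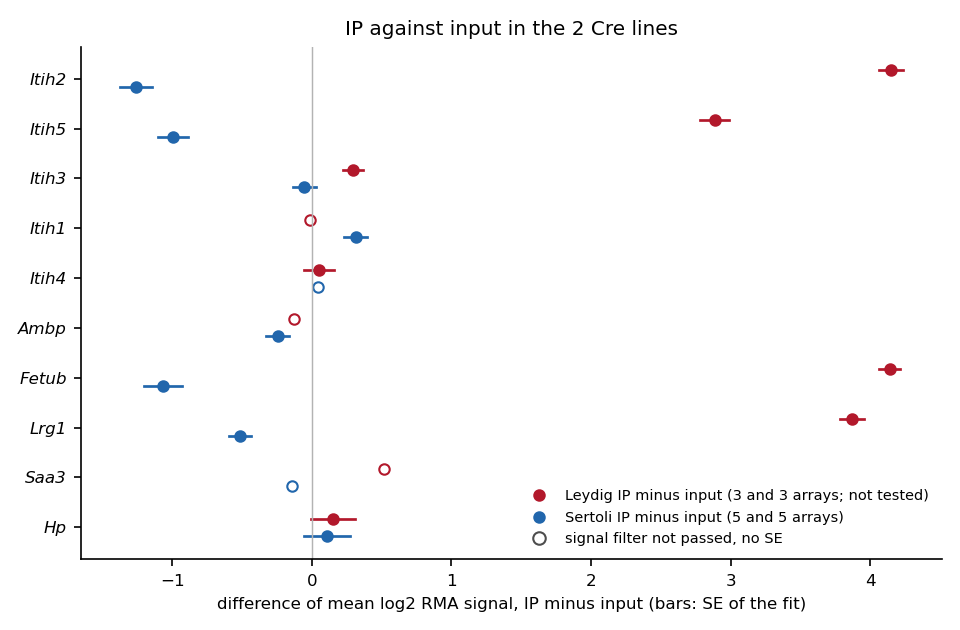
Difference of mean log2 RMA signal between IP and input (x axis) for the 10 transcripts (y axis) in the Leydig line (red, 3 IPs and 3 inputs, description only) and the Sertoli line (blue, 5 and 5); bars are the standard error of the limma fit and open circles did not pass the signal filter. Itih2, Itih5, Fetub and Lrg1 lie at 2.88 to 4.15 in the Leydig line and at -1.26 to -0.51 in the Sertoli line.

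Acyline IPs were compared between the lines with the spread taken over all 24 IPs; earlier results of these arrays were known too when the members were chosen. Fetub read 11.50 and 12.12 in Leydig acyline IPs and 5.40 and 5.68 in Sertoli acyline IPs. The log2 difference was 6.27 (standard error 0.25, limma adjusted p = 1.18e-12). Itih2 read 11.95 and 11.96 against 5.97 and 5.87, a 65.6-fold difference (log2 6.04, standard error 0.16, limma adjusted p = 1.90e-14). Itih5 read 9.24 and 9.14 against 4.94 and 4.81 (log2 difference 4.31, standard error 0.15, limma adjusted p = 2.89e-13). Lrg1 read 8.43 and 8.36 against 5.70 and 5.37 (log2 difference 2.86, standard error 0.21, limma adjusted p = 5.14e-09). Over the filter limit of 5.64 were 2 of 2 Sertoli arrays for Itih2, 1 of 2 for Fetub and for Lrg1 and 0 of 2 for Itih5, so the sizes for the latter 3 are not read as ratios. For these 4 transcripts no Leydig array was as low as any Sertoli array. The same held for Itih3 and Saa3, so for 6 of the 10 members, and Hp was lower in both Leydig arrays. The share of all probe sets with such separation of 2 against 2 arrays was not computed, so nothing is read from that count.

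Of the 9 members that passed the filter, 4 were called higher (Itih2, Itih5, Fetub and Lrg1) and 0 lower. Over all 25399 probe sets 5.58% were called higher and 6.63% lower. Itih5 passed the filter only through Leydig IPs, since none of the 15 Sertoli IPs reached 5.64. Itih3 had a log2 difference of 0.36 (standard error 0.14, limma adjusted p = 0.0527), with 6.12 in each Leydig array and 5.68 and 5.84 in the Sertoli arrays. The remaining 4 that passed had log2 differences of -0.27 to 0.06, and their 95% intervals lay within -0.33 to 0.33 for Itih1, Itih4 and Ambp and ran from -0.70 to 0.15 for Hp. Days on acyline, Cre line and cell type differ together between these arrays and cannot be told apart.

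Saa3 was under the signal filter in all 32 arrays and was not tested. It read 4.52, 4.86 and 5.03 after saline, 5.03 and 5.22 after acyline, 4.87 and 4.87 after LH for 1 h, and 5.11 and 4.89 after LH for 4 h in Leydig IPs. The 15 Sertoli IPs ran from 3.94 to 4.51 with a median of 4.17, and the 8 inputs from 4.10 to 4.44, so every Leydig IP was the higher. Together with Itih2, Itih5, Fetub and Lrg1 it made 5 of 10 members with all 9 Leydig IPs above all 15 Sertoli IPs; this held for 8.74% of all 35556 probe sets, and 3 of the 9 arrays had been used to choose members. At such low signal a fold on the array understates a change, so the log2 difference given above for Saa3 between Leydig IPs and inputs is not read as a size.

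Within the inhibitor family the heavy chains lie at separate loci and had unlike values, and a part of position in this was not tested. Itih2 and Itih5 are next to each other, and their neighbors Kin and Atp5c1 on one side had log2 differences of 0.44 and 0.49 between Leydig IPs and inputs, and Sfmbt2 and Prkcq on the other side had -1.45 and -1.87, beside 4.15 for Itih2 and 2.88 for Itih5. Itih4, Itih3 and Itih1 are adjacent in that order at another locus and had 0.05, 0.29 and -0.01. Between acyline IPs of the lines Itih4, Itih3 and Itih1 had -0.01, 0.36 and 0.06, against 6.04 for Itih2 and 4.31 for Itih5. There Kin, Sfmbt2 and Prkcq had -0.57, -0.06 and 0.02 and were not called, and Pfkfb3, the outermost neighbor shown, was called lower (log2 -1.92, limma adjusted p = 1.63e-09).

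Fetub lies in a row of cystatin-type genes. Its neighbors Ahsg (fetuin-A, a plasma carrier of mineral), Hrg (histidine-rich glycoprotein), Kng2 and Kng1 (kininogens) had log2 differences of 0.71, 0.11, 0.21 and 0.19 between Leydig IPs and inputs, beside 4.14 for Fetub. Lrg1 lies between Plin5 and Sema6b, with 1.57 for Plin5, a coat protein of lipid droplets, -0.08 for Sema6b and 3.87 for Lrg1. Between acyline IPs of the lines Ahsg and Plin5 were not called, at 0.18 and -0.04. Neighbor relations were taken from RefSeq; the first set of these differences is a description, since Itih2 and Fetub were chosen on it.

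**Figure D3:**
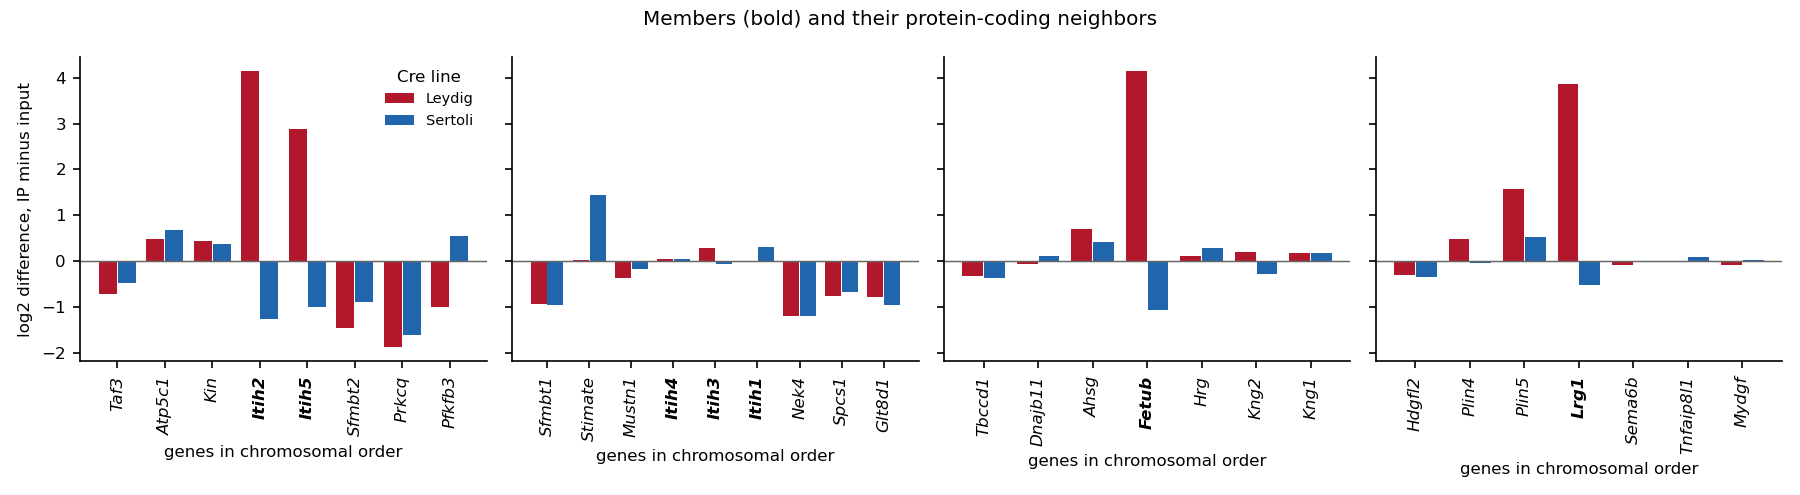
Log2 difference between IP and input (y axis) for the members (bold) and the 3 protein-coding genes on either side, in chromosomal order, in the Leydig line (red) and the Sertoli line (blue). Itih2, Itih5, Fetub and Lrg1 stand alone at 2.88 to 4.15 in the Leydig line; the highest other bar in that line is Plin5 at 1.57.

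Gonadotropin withdrawal was read from acyline against saline IPs of the Leydig line. In the study acyline abolished serum LH and testosterone and reduced FSH, and the LH injection raised LH and testosterone. Loss of LH, of testosterone and of FSH therefore cannot be told apart after acyline, nor LH from testosterone after the injection. Lrg1 read 9.99, 10.14 and 10.05 after saline and 8.43 and 8.36 after acyline in Leydig IPs, with a wide gap between the groups. It fell by 1.66 on the log2 scale, or 3.16-fold (95% interval of the log2 difference -2.15 to -1.17, standard error 0.22, limma adjusted p = 0.0377). It was the 1 member called among 8 that passed, where 0.110% of 24461 probe sets were called lower and 0.0327% higher. The saline IPs of this comparison are among the arrays used to choose the members. The call rests on few arrays: without any 1 of the 5 arrays the log2 difference was -1.70 to -1.62 but the adjusted p was 0.0909 to 0.230, and with no filter on low values it was 0.0694.

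Itih2, Itih5 and Fetub were not called after acyline. Fetub read 11.33, 11.34 and 11.36 after saline and 11.50 and 12.12 after acyline, so both acyline arrays were above the saline arrays and lay far apart from each other (log2 difference 0.46, 95% interval -0.10 to 1.02, limma adjusted p = 0.445). Itih2 read 11.95 and 11.96 after acyline, a difference of -0.18 (95% interval -0.47 to 0.11), and Itih5 read 9.24 and 9.14, a difference of 0.17 (95% interval -0.13 to 0.46). The intervals include 0 for all 3 and do not show that the levels were alike. The remaining 4 that passed had log2 differences of -0.22 to 0.20.

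The summed linear signal of the 6 Leydig cell markers moved in the same direction as Lrg1. It was 40198 to 42458 in the saline IPs and 29357 to 32198 after acyline. After LH it was 31184 to 33165 at 1 h and 37213 to 44523 at 4 h. Single markers differed: in these groups Hsd3b1 had mean log2 signals of 11.24, 11.67, 11.98 and 11.73, so it rose after acyline. Hsd3b6 (12.85, 12.09, 12.36 and 12.22) and Hsd17b3 (12.50, 12.16, 12.16 and 12.18) fell and stayed below saline at 4 h. Star, Cyp11a1 and Cyp17a1 were lower after acyline and higher again at 4 h. Of the 6 adipocyte markers measured, Plin1, which coats lipid droplets, had mean log2 signals of 8.44, 7.64, 7.71 and 8.55 in these groups, while the list median of the difference between acyline and saline was -0.02. The part of these markers in the change of Lrg1 was not tested.

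In Sertoli IPs acyline left Lrg1 at 5.70 and 5.37, against 5.52 to 5.81 after saline, a log2 difference of -0.06 (95% interval -0.38 to 0.25). The acyline effect on Lrg1 was more negative in Leydig than in Sertoli IPs by 1.60 on the log2 scale, tested as an interaction over all 24 IPs (log2 -1.60, standard error 0.27, 95% interval -2.16 to -1.04, limma adjusted p = 0.0296). Of 9 members that passed, 1 was called lower, where 0.0433% of 25399 probe sets were and 0.0236% were called higher. The Sertoli levels lie around the filter limit of 5.64, with 1 of 5 saline and 1 of 2 acyline IPs over it, so a fall there might not be measurable. Without 1 array in turn the call was lost in 9 of 12 cases (kept without Sertoli saline replicate 1 or 3 or Leydig saline replicate 2), with log2 differences of -1.76 to -1.44 and adjusted p-values of 0.0318 to 0.182. For the other 8 members that passed, the log2 difference between the effects was -0.30 to 0.37 and none was called.

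At 4 h of LH after acyline, Lrg1 was higher and Fetub lower than after acyline alone on every array, and neither passed the adjusted test. Lrg1 read 8.43 and 8.36 after acyline, 8.89 and 8.53 after LH for 1 h, and 9.85 and 9.03 after LH for 4 h. Each group lay above the one before it without overlap. At 4 h the difference from acyline was 2.06-fold (log2 1.04, standard error 0.24, 95% interval 0.50 to 1.58, limma adjusted p = 0.0877), and at 1 h it was 0.31 on the log2 scale (limma adjusted p = 0.866). Without LH 4 h replicate 2, the lower of the pair, the 4 h difference was 1.45 (limma adjusted p = 0.0108) and would be called. That array also had more signal of other cells than replicate 1, with summed Sertoli markers of 3045 against 1827 and germ cell markers of 27215 against 20589, and their part in its lower Lrg1 was not tested.

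Fetub read 11.50 and 12.12 after acyline, 11.38 and 11.01 after LH for 1 h, and 11.08 and 10.32 after LH for 4 h. Both LH groups lay below both acyline arrays. The log2 difference was -0.61 at 1 h (standard error 0.27, limma adjusted p = 0.824) and -1.11 at 4 h, or 2.16-fold lower (standard error 0.27, 95% interval -1.72 to -0.50, limma adjusted p = 0.0969). With 1 array left out in turn the 4 h difference was -1.49 to -0.73, and it was -0.73 without LH 4 h replicate 2. That array gave the lower Fetub value of the pair and, as described for Lrg1, more signal of Sertoli and germ cell markers than replicate 1. The part of other cells in the fall of Fetub was not tested. Fetub is named in the study as a transcript that fell after LH, so this direction is not an independent observation. The study also measured Fetub by qRT-PCR in the IPs and reported a significant fall after LH.

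Itih2 read 11.95 and 11.96 after acyline, 12.02 and 11.71 after LH for 1 h, and 11.77 and 11.57 after LH for 4 h (4 h against acyline -0.29, 95% interval -0.60 to 0.03, limma adjusted p = 0.311). Itih5 read 9.24 and 9.14, then 9.50 and 9.39, then 9.23 and 8.95 (4 h against acyline -0.10, 95% interval -0.42 to 0.23, limma adjusted p = 0.757). For Itih2 both arrays at 4 h were under both acyline arrays, and for Itih5 the groups overlapped. In both transcripts LH 4 h replicate 2 gave the lower value of the pair. Of the 10 members, 4 had both 4 h arrays under both acyline arrays and 1 had both above. The share of all probe sets with such separation was not computed. Against acyline, limma called 0 of the 8 members that passed at 1 h (1 at an unadjusted p under 0.05, Fetub) and 0 of 8 at 4 h (2 at an unadjusted p under 0.05, Fetub and Lrg1), where 0.00818% and 0.613% of 24461 probe sets were called in either direction. An ordinary contrast with unadjusted p and the same fold called 2 at 4 h.

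Between 4 h and 1 h of LH limma called 0 of 8 members (2 at an unadjusted p under 0.05), where 0.200% of probe sets were called. Lrg1 was 0.73 higher (limma adjusted p = 0.200) and, without LH 4 h replicate 2, 1.14 higher (limma adjusted p = 0.0275). Itih5 was 0.36 lower (log2 -0.36, limma adjusted p = 0.269). Against saline, 4 h of LH gave 0 called of 8 (3 at an unadjusted p under 0.05), where 3.32% of probe sets were called. There Itih2 differed by -0.47 (limma adjusted p = 0.0670), Fetub by -0.65 (limma adjusted p = 0.152) and Lrg1 by -0.62 (limma adjusted p = 0.127). Both LH arrays were under all 3 saline arrays for 4 members, these 3 and Hp. The share of all probe sets with such separation was not computed, so nothing is read from it. Without LH 4 h replicate 1 the Lrg1 difference from saline was -1.03 (limma adjusted p = 0.0428). Comparisons with acyline share the same 2 acyline IPs and those with saline the same 3 saline IPs.

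**Figure D4:**
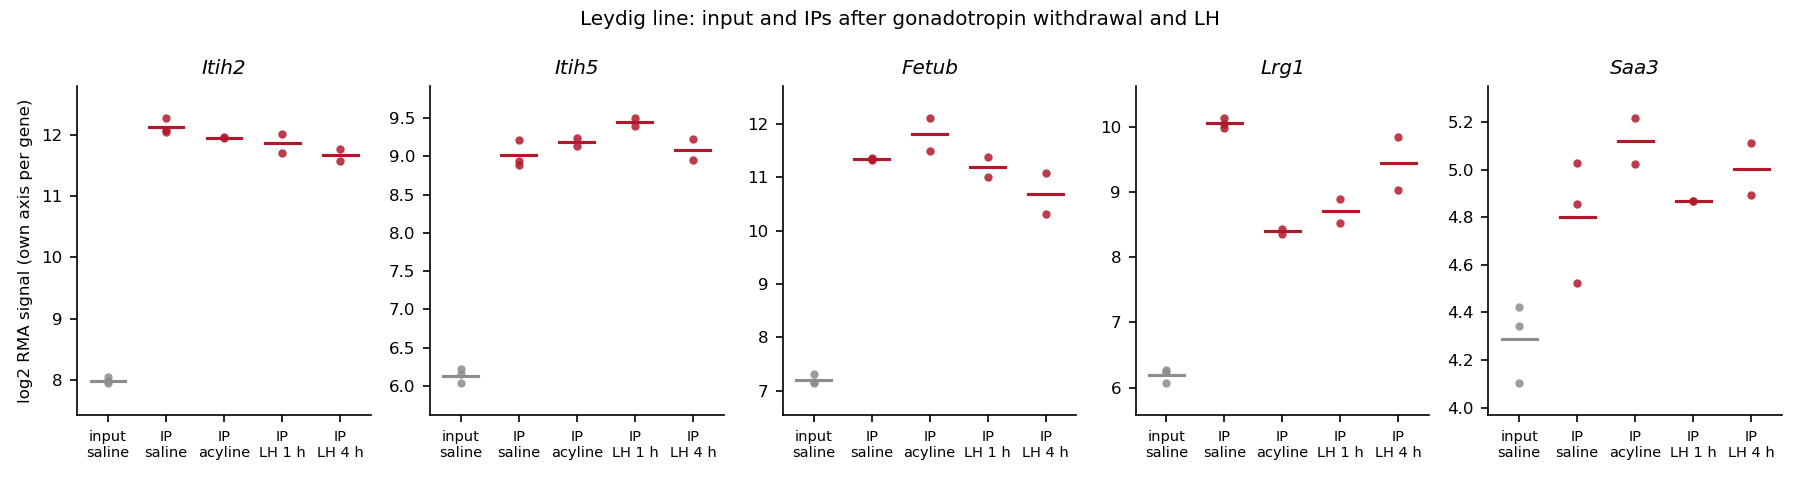
Log2 RMA signal of Itih2, Itih5, Fetub, Lrg1 and Saa3 in Leydig line inputs and in Leydig IPs after saline, acyline, and acyline with LH for 1 h or 4 h; points are arrays, lines are group means, and each gene has its own y axis. Lrg1 goes from 9.99 to 10.14 after saline to 8.36 to 8.43 after acyline and 9.03 to 9.85 after LH for 4 h, and Fetub from 11.50 to 12.12 after acyline to 10.32 to 11.08 after LH for 4 h.

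Over the 9 Leydig IPs the profiles most like that of Lrg1, among 881 probe sets with a range of at least 1, were those of Hacd2 (r = 0.973), an enzyme of very long chain fatty acid elongation, Kdelr3 (r = 0.965), a receptor that returns proteins to the endoplasmic reticulum, and Lrrn4 (r = 0.958), a leucine-rich repeat membrane protein. Their mean log2 differences of acyline from saline were -0.89, -0.96 and -1.20, and those of LH for 4 h from acyline were 0.51, 0.59 and 0.81. The same 9 arrays carry both these profiles and that of Lrg1, so the r values are a description.

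Hormone treatments of the Sertoli line gave no call for any member. Limma called 0 of 8 members that passed in each of 5 comparisons: acyline against saline (1 at an unadjusted p under 0.05, Itih2), cetrorelix against saline (0), FSH for 1 h (0) and 4 h (0) against acyline, and T for 4 h against cetrorelix (1, Lrg1). Over all 24648 probe sets 0.00406%, 0.0122%, 0%, 0.0203% and 0.00406% were called. The ordinary contrast also called 0 in each. Itih2 was 5.97 and 5.87 after acyline and 5.95 to 6.45 after saline (log2 -0.32, 95% interval -0.63 to -0.01, limma adjusted p = 0.966). The summed linear signal of the 6 Leydig cell markers was 1597 to 2175 in Sertoli saline IPs and 935 to 1091 in Sertoli acyline IPs. Their part in the Itih2 difference was not tested. Lrg1 was 5.73 and 5.64 after T and 5.54 and 5.04 after cetrorelix (log2 0.40, 95% interval 0.02 to 0.78, limma adjusted p = 0.930). Over the members that passed, log2 differences were -0.32 to 0.15 for acyline, -0.31 to 0.14 for cetrorelix, -0.23 to 0.10 and -0.20 to 0.13 for FSH at 1 h and 4 h, and -0.25 to 0.41 for T.

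The partners of the heavy chains that were called between the cell types were all higher in Sertoli IPs. Of 10 hyaluronan and matrix partners that passed, 0 were called higher and 3 lower in Leydig acyline IPs against Sertoli acyline IPs: Tnfaip6 (log2 -2.51, limma adjusted p = 0.000176), which transfers heavy chains to hyaluronan, Cemip2 (-1.13), a hyaluronidase, and Hapln3 (-1.09), a hyaluronan link protein. Over all probe sets 5.58% were called higher and 6.63% lower. The list median was -0.11, beside -0.02 over all probe sets. In Sertoli IPs against input, 4 of 11 were called higher (Tnfaip6 at 2.53, Hapln3 at 1.19, Vcan at 1.12 and Ugdh at 1.06) and 1 lower (Hmmr at -1.40), where 12.4% and 11.7% of all probe sets were; the list median was 0.17. In Leydig IPs against input only Ugdh, which makes the sugar acid precursor of hyaluronan, was past 2-fold among 9 (log2 1.93), where 11.0% of all probe sets were past 2-fold higher, and Tnfaip6 was at 0.45.

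Among 42 other measured plasma proteins of liver, some followed Fetub and Itih2 and others did the reverse. Of the 23 that passed, 6 were called higher in Leydig acyline IPs than in Sertoli acyline IPs, led by Apoc1 (log2 5.39, limma adjusted p = 2.22e-13), Lcn2 (5.17), Agt (4.68) and Apoe (3.97). Apoc1 and Apoe are apolipoproteins, Lcn2 binds bacterial siderophores and Agt is the precursor of angiotensin. The 2 called lower were Apoa2 (-2.48) and Trf (-2.40), the iron carrier transferrin. Over all probe sets 5.58% were called higher and 6.63% lower in this comparison, 12.4% and 11.7% in Sertoli IPs against input, and 11.0% and 10.7% were past 2-fold in Leydig IPs against input. In Sertoli IPs against input 3 of 20 were called higher (Trf at 2.79, Apoa2 at 1.58, Clu at 1.29) and 7 lower (led by Lcn2 at -2.46, Agt at -1.81, Cp at -1.75 and Serpina1c at -1.42). In Leydig IPs against input 9 of 20 were past 2-fold higher (led by Apoc1 at 3.61, Cp at 2.90, Azgp1 at 2.83 and Apoe at 2.37) and 1 lower (Rbp4 at -1.16). List medians in these comparisons were 0.00, 0.01 and 0.13.

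After acyline, 1 of 20 of these proteins was called in Leydig IPs, where 0.110% of all probe sets were called lower: Serpinf2, the plasmin inhibitor of plasma, differed by -1.41 (limma adjusted p = 0.00846), and by -1.41 from the acyline effect in Sertoli IPs (limma adjusted p = 0.00119). It was then called lower in LH for 4 h against saline too (-1.12, limma adjusted p = 0.0101), with Cp (-0.85) and Ahsg (-0.62), where 3.32% of all probe sets were called in either direction.

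Several regulators of the acute phase were higher in the IPs than in input in both cell types. Of 14 that passed, 6 were past 2-fold higher in Leydig IPs against input, led by Tnfrsf1a (2.22), Jak1 (2.13), Stat3 (1.58) and Il6st (1.21), the shared receptor chain of the interleukin 6 family; 11.0% of all probe sets were. In Sertoli IPs 6 of 14 were called higher, led by Nfkbia (2.35), Tnfrsf1a (2.08), Jak1 (2.02) and Il6st (1.56), where 12.4% of all probe sets were. Between acyline IPs of the lines 3 of 15 were called higher in Leydig cells, Cebpb (1.67), Cebpa (1.19) and the glucocorticoid receptor Nr3c1 (1.13), and Nfkbia was called lower (-1.57), where 5.58% and 6.63% of all probe sets were called higher and lower. Cebpb and Cebpa were also called higher in LH for 4 h against saline (1.16 and 1.01, limma adjusted p = 0.0385 and 0.0172), 2 of 14, where 3.32% of all probe sets were called in either direction.

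Of the factors that set hepatocyte identity, Nr1h4, the bile acid receptor, was called higher in Leydig acyline IPs against Sertoli acyline IPs (log2 1.71), 1 of 8 that passed, where 5.58% of all probe sets were. Mean log2 signals of Nr1h4 were 6.66 in the Leydig and 4.95 in the Sertoli acyline IPs. The Sertoli mean lay under the filter limit, so the size is not read as a ratio. In Leydig IPs against input Nr1h4 (1.28) and Foxa3 (1.26) were past 2-fold among 7, and limma called 0 of 6 in Sertoli IPs (3 at an unadjusted p under 0.05). Of the receptors, proteases and targets of the proteins described, Furin (2.04) and Lrp1 (1.87) were past 2-fold among 9 in Leydig IPs, where 11.0% of all probe sets were. In Sertoli IPs 3 of 9 were called higher: Tgfb1 (2.12), Lrp1 (2.00) and Furin (1.46), where 12.4% of all probe sets were. Tgfb1 was the 1 of 8 called lower in Leydig acyline IPs against Sertoli acyline IPs (-1.61), where 6.63% of all probe sets were. In LH at 1 h and 4 h against acyline limma called 0 genes of any of these 5 lists, with 3 and 4 at an unadjusted p under 0.05.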

How the data were processed

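Each of 32 RNA samples was hybridized to an Affymetrix Mouse Gene 1.0 ST array. The deposited table holds the authors' log2 signals after RMA for 35556 probe sets; the sources used here name no RMA version. Groups came from the sample titles; 4 cetrorelix arrays whose source label reads input are IPs by title and sample type. Of the probe sets, 21789 name 1 symbol, and each member has 1 probe set. The members, gene lists and comparisons were chosen with earlier results of these data known.

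Contrasts were fitted with limma 3.58.1 in R 4.3.3 and adjusted by Benjamini-Hochberg over all probe sets with a linear signal over 50 in at least 1 array of the fit. IPs were compared with inputs within a line, hormone groups over all IPs of a line, and lines over all 24 IPs. Called means adjusted p below 0.05 with at least 2-fold difference for IPs against inputs and between lines, or 1.5-fold for the other IP comparisons. All 10 members are named; from each list, up to 4 called genes with the largest change are. Profiles like that of a member called in a Leydig hormone comparison are the 3 with the highest Pearson r. Scripts were tested on simulated data. Alternatives were no filter, median centering, quantile normalization, an ordinary contrast with unadjusted p, only the groups compared, a replicate block and each array left out. The number of arrays limits the precision.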

Additional observations from a re-analysis of the deposited data

Results flagged for a closer look

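Of 20 combinations of a member and a group of 5 arrays, 2 held an array far from the rest, where chance gives about 1 in 20. Itih1 was 5.48 in Sertoli input replicate 2 and 5.20 to 5.23 in the other 4 inputs, under the signal filter in all. Lrg1 was 5.81 in Sertoli saline IP replicate 3 and 5.52 to 5.60 in the other 4.

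The acyline effect on Lrg1 was past the threshold for a difference between the cell types, at -1.60 on the log2 scale (Leydig minus Sertoli, limma adjusted p = 0.0296), with both Leydig acyline arrays under all 3 Leydig saline arrays and overlapping groups in the Sertoli IPs. The call was lost in 9 of 12 fits with 1 array left out and with the replicate block (limma adjusted p = 0.0533), and only 1 of 5 saline and 1 of 2 acyline Sertoli IPs were over the filter limit of 5.64.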

How the results depend on the processing

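Counts of called members stayed within 1.5 times the reported count in 130 of 151 recomputed cases and moved in 21. For acyline against saline in Leydig IPs the count of 1 became 0 with no filter on low values (Lrg1 adjusted p = 0.0694) and 0 to 0 with 1 array left out. With the replicate number as a block it was 0 (Lrg1 -1.67, limma adjusted p = 0.120), and the count for the difference between the acyline effects was 0 as well (Lrg1 -1.55, limma adjusted p = 0.0533); the block changed no other call. The study compared IPs with their respective inputs, but the sources used here do not say that the numbers mark them. Deviations of the 8 same-numbered pairs of an IP and an input correlated at -0.03 to 0.16, 7 above 0 and 3 over 0.1, and those of the other 21 same-numbered pairs at -0.18 to 0.15. With 1 array left out, the count for that difference was 0 to 1, and those for LH 4 h against acyline, LH 1 h and saline were each 0 to 1, the call in each case being Lrg1. The ordinary contrast gave 2 for LH 4 h against acyline. Single members kept direction and side of the threshold in 380 of 412 cases, 19 lost and 10 gained a call. The 3 reversals were differences near 0 with 1 array left out: Itih2 at LH 1 h against acyline (-0.25 to 0.07; 0.065 without LH 1 h replicate 2), and Itih5 at LH 4 h against acyline (-0.23 to 0.04; 0.040 without LH 4 h replicate 2) and against saline (-0.07 to 0.21; -0.066 without LH 4 h replicate 1). The cause was not tested. An alternative probe set did not exist for any member. Saa3 was never above the signal filter, and Itih1, Itih4 and Ambp were above it in 5, 7 and 6 of 32 arrays.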
